A study of Mus musculus with 9 samples.

Results

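Splice junctions that the aligner did not mark as annotated, but that were well read, were examined in mouse liver. A junction was taken when the deposited tables marked it as unannotated, gave it a splice motif and held at least 20 uniquely mapped reads for it over the 9 libraries. Of 289955 junctions in the tables, 137273 were unannotated with a motif, and 4670 of those reached 20 reads. At least 1 of them was assigned to each of 2248 genes, and 301 had no annotated end and did not lie inside a gene on their strand. Because reads chose them, their number and depth are a description. At the threshold, 186 unannotated junctions had exactly 20 reads and were kept, and 264 had exactly 19 reads and were not.

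The study compared livers of C57BL/6 mice in 3 groups of 3 libraries, labelled WT (genotype wild type), YAP (YAP transgenic) and YAP_Lsd1ko (YAP; Lsd1 KO). YAP is the transcriptional coactivator at the end of the Hippo pathway, and LSD1, encoded by Kdm1a, is a histone demethylase. Every mouse, WT included, received AAV8-ApoE/ATT1-Cre by intraperitoneal injection, so Cre was driven by a promoter of the hepatocyte type and liver cells of other kinds were not its target. YAP expression was induced with doxycycline in the drinking water. The labels list it at 30 mg/L for 14 days for all 9 libraries, WT included. The labels do not state that each library came from its own animal, so p-values measure the spread between these samples, which may in part be technical. Libraries held 6910297 to 9925154 uniquely mapped junction reads.

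In splicing, the spliceosome joins the donor site at the 5′ end of an intron to the acceptor site at its 3′ end, and most introns begin with GT and end with AG. A gene can yield several transcripts by starting at another first exon, leaving out an exon, or moving a donor or acceptor by some bases. Liver makes secreted proteins, complement factors and drug-metabolising enzymes from very abundant transcripts, and in such transcripts even rare splicing choices are read often.

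As a check of the labels, Kdm1a was read in every library. Over its annotated introns its level in CPM (unique reads scaled to the library's sum of unique junction reads after TMM correction) was 28.7, 36.4 and 30.9 in the WT libraries. It was 35.0, 42.4 and 45.3 in the YAP libraries, and 15.4, 33.4 and 24.5 in those labelled YAP_Lsd1ko. The library labelled YAP_Lsd1ko replicate 2 was thus within the WT range, and the total counts of level and usage calls in both comparisons of YAP_Lsd1ko are also given without it. Yap1 ranged from 16.4 to 18.2 CPM in WT, from 64.1 to 74.8 in YAP and from 28.9 to 45.5 in YAP_Lsd1ko. The 7 hepatocyte markers summed to at least 104029 CPM in every library. Markers of other cell types differed between groups. The 6 cholangiocyte markers summed to 46.2 to 99.3 CPM in WT, to 928 to 1063 in YAP and to 144 to 589 in YAP_Lsd1ko, and the 6 macrophage markers to 402 to 842, 1772 to 2186 and 397 to 1928 CPM. No marker of these 2 lists was at 0 in a whole group. In bulk tissue, fewer cells of a type and less RNA per cell cannot be told apart, and the part of cell composition in the results below was not tested.

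The following sequences show what the unannotated junctions join. Each is given 5′ to 3′ on the transcript strand from GENCODE M21 transcripts (GRCm38, the same assembly as mm10). The first set, new acceptors that lie 3 bases inside an annotated exon, is shown because it was the most frequent short shift. Capitals mark the 3 exon bases that the new acceptor leaves out.
Cfi: gccgttgtgaagAAGaccgacagcaga
Inmt: ggagggagacagAAGcaggtggcagga
Col18a1: gcctctgctgggCAGgtgaggatctgg
Rplp2: cccccgctgcagCAGaggagaagaaag

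The second set shows new donors inside an annotated exon. Capitals mark the exon bases that the new donor leaves out, 30 in Hnf4a (chr2:163568998-163569039, plus strand) and 4 in the urinary protein gene Mup3 (chr4:62084759-62084774, minus strand).
Hnf4a donor: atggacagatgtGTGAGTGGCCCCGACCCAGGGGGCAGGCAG
Mup3 donor: gacctaaccaatGTCA

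The third set shows transcripts joined across an exon or from another first exon, at junctions that the comparisons turn on. Capitals mark the first 15 bases of the exon after the junction.
Fgl1 join: gttggtgataaaaagGTGTCACTCTGCAAA
Gnmt join: tgccagactgcaaagAGTGACCTGACCAAG
Kyat3 join: ctctgcacttctgccAAAATGGCTTTGAAA
Hnf4a join: tggcgagtccttatgACACGTCCCCATCTG

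The last is the 60-base alternative exon of Kdm1a (chr4:136582040-136582099, minus strand), shown whole because both junctions that flank it were among the 4670.
Kdm1a exon: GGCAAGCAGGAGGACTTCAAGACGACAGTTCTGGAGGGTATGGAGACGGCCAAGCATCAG

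Most of these junctions were known to GENCODE M21, although the authors' run marked them as unannotated. Of the 4670, 3243 (69.4%) joined splice sites that are both annotated in M21, 1027 (22.0%) had 1 annotated end and 400 (8.57%) had none. In the first class, 2942 were introns of an M21 transcript, and these held 318146 of the 431170 reads (73.8%). The other 1728 lay outside M21. A further 289 paired annotated sites of 1 gene in a new way and 12 joined sites of different genes. New acceptors numbered 493 and new donors 534. Without any annotated end, 99 lay inside a gene on its strand and 301 did not.

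**Figure D1:**
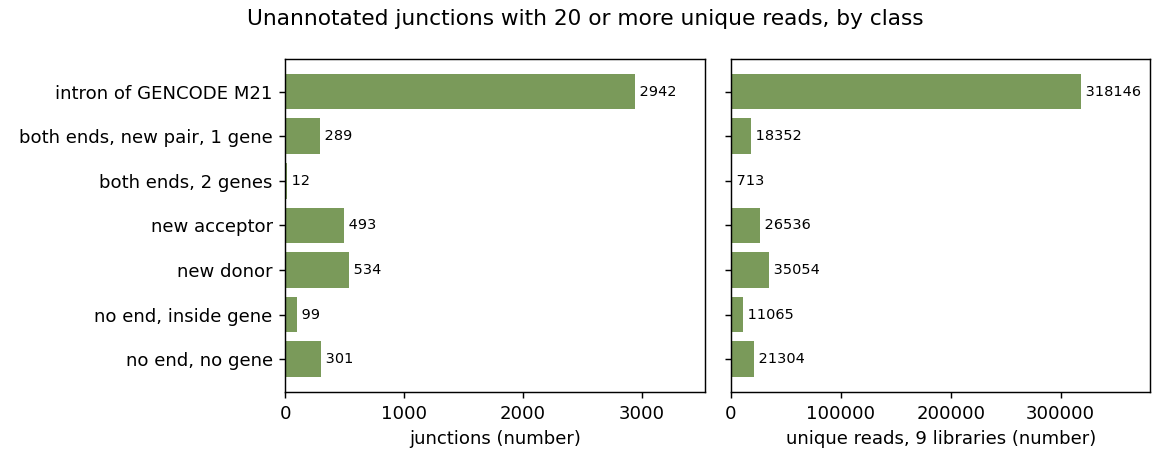
Number of unannotated junctions with 20 or more unique reads in each class (left) and their unique reads summed over the 9 libraries (right). Introns of GENCODE M21 were the largest class by both measures, with 2942 junctions and 318146 reads.

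The 4670 were shallower than annotated junctions. Their median was 39.0 reads over the 9 libraries, against 136.0 for the 108660 junctions marked annotated with at least 20 reads. They were read in all 9 libraries in 2895 cases (62.0%), against 88.2% of the annotated ones, and 4 were read in fewer than 3 libraries. The motif was GT-AG in 4654, GC-AG in 14 and AT-AC in 2. Junctions without an annotated end and not inside a gene on their strand included 22 of the 35 whose longest overhang was under 20 bases. They also included 26 of the 49 introns above 100 kb. A short overhang or a very long intron leaves more room for a misplaced read.

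The 2942 M21 introns were compared with annotated introns of M21. They were the first intron of a transcript in 932 cases (31.7%), against 18.5% of 108480 annotated introns of at least 20 reads. They belonged to exactly 1 transcript in 1666 cases (56.6%), against 18.6%. Their gene was protein-coding in 2619 cases (89.0%), against 98.3%, and a lincRNA in 94. Between coding bases of a protein-coding transcript lay 1487 of them (50.5%).

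By reads, this class was led by genes that liver expresses strongly. The M21 intron of Mup3 had 22699 reads, that of Rps28, a ribosomal protein gene, 8970, that of the sulfotransferase gene Sult1a1 7477, and that of Ndufb1-ps 5149. Mup genes are near-identical copies, so the assignment of their reads to 1 copy is uncertain. By number of junctions the order was different. Rnf213, a large ubiquitin ligase gene, held 70 of the 4670, of which 5 were outside M21. Mgam, which encodes the starch-digesting enzyme maltase-glucoamylase, held 45, of which 30 were outside M21. Syne1, a nuclear envelope gene, held 31, and Stard9 held 21. Sorbs2, a cytoskeletal adaptor gene, held 16, as many as BC024386. Outside M21, Mgam was followed by Cyp3a25 with 15, C4bp with 12 and Gc, the vitamin D-binding protein gene, with 11.

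New pairs of annotated sites mostly left out exons. Of the 289, 201 passed over 1 exon of the gene, 50 over 2 and 9 over 3. The most read was in C4bp, which encodes the complement inhibitor C4b-binding protein, with 1211 reads (chr1:130636877-130642933). It took 6.81% ± 0.767 of the reads of its donor in WT, 8.31% ± 0.154 in YAP and 8.72% ± 0.934 in YAP_Lsd1ko (SD, n = 3). In Cfi, which encodes the complement-cleaving protease factor I, a junction over a 21-base exon had 540 reads and took 5.63% ± 0.441, 8.61% ± 1.21 and 8.15% ± 0.866 of its donor. Each WT library lay below every library of both other groups for the C4bp share, and also for the Cfi share. Neither junction passed the level or usage tests described further on, and the shares are a description.

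Among the 1027 junctions with 1 annotated end, the new site lay in an annotated exon of the gene in 392, in an intron in 533, upstream of the gene in 52 and downstream in 23. Acceptors and donors differed in where they fell. New acceptors were in exons in 251 cases and in introns in 204, while new donors were in exons in 141 and in introns in 329. Within 30 bases of an annotated site of the same kind there were 200 new acceptors and 105 new donors. Of those acceptors 140 (70.0%) were shifted by a multiple of 3 bases, which keeps the reading frame when the site is coding, and of those donors 45 (42.9%).

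A shift of 3 bases into the exon alone made up 72 of the new acceptors. Shifts of 3 bases in the other direction made up 23, of 4 bases into the exon 16 and of 5 bases 15. In the 72, the 3 exon bases read CAG in 28, AAG in 25, TAG in 12 and GAG in 7. The final AG follows from the motif that every one of these junctions has. Among 107663 annotated acceptors of well-read junctions, 5372 (4.99%) began their exon with such a triplet, mostly GAG (3617), followed by AAG (1073), CAG (560) and TAG (122). The 72 took 2.59% of the reads of their donors in WT, 2.63% in YAP and 2.35% in YAP_Lsd1ko when reads were pooled, which weights the most read donors. The median over the 72 was 9.31%, 10.8% and 10.05%. The most read, in Cfi (758 reads), took 8.67%, 8.54% and 8.00% of its donor's reads. That in Col18a1, a basement membrane collagen gene, took 29.6%, 21.3% and 23.4%.

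**Figure D2:**
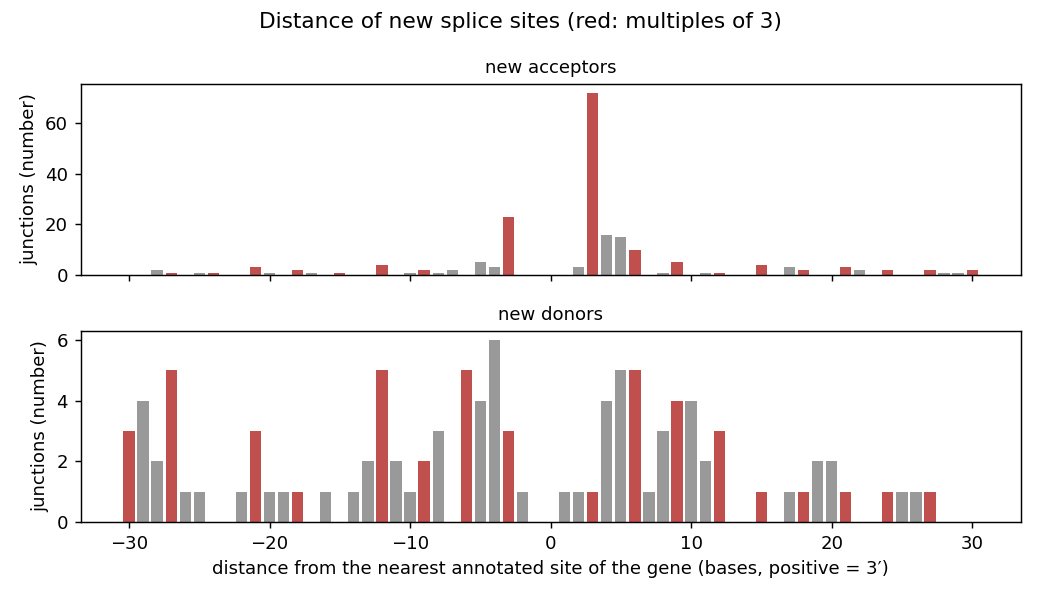
Number of new acceptors (top) and new donors (bottom) at each distance in bases from the nearest annotated site of the same kind in the gene, positive towards the 3′ end, multiples of 3 in red. The acceptor plot is led by 72 junctions at 3 bases and 23 at -3, while donors show no peak above 6 junctions.

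Pairs of new junctions enclosed possible exons. In 53 genes, a new acceptor and a new donor of the same gene lay on either side of 64 stretches of 10 to 500 bases. Their median length was 101.5 bases, and 29 of the 64 had a length divisible by 3.

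Few junctions had a splice site in 2 genes. The most read of these 12 joined Cfhr2 to Gm4788 (134 reads), Serpina1e to Serpina1b (108), Cyp2c37 to Cyp2c50 (85) and Selenbp2 to Selenbp1 (79). Each pair belongs to 1 family of similar genes, so the gene of origin of these reads is uncertain. Serpina1a lies between Serpina1b and Serpina1e.

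The share of junction reads on the 4670 was similar in the 3 groups. It was 0.588% ± 0.0523 in WT, 0.560% ± 0.0148 in YAP and 0.610% ± 0.050 in YAP_Lsd1ko (SD, n = 3), and the groups overlapped. Outside M21 the share was 0.161% ± 0.0205, 0.135% ± 0.00334 and 0.165% ± 0.0194. New donors took 0.0516% ± 0.00952 in WT, 0.0389% ± 0.00158 in YAP and 0.0529% ± 0.0102 in YAP_Lsd1ko. The 3 YAP libraries, at 0.0373 to 0.0405%, lay below every other library for new donors. They also lay below every other library for new acceptors, at 0.0300 to 0.0331%, where WT had 0.0341 to 0.0416% and YAP_Lsd1ko 0.0353 to 0.0436%. No test was made of these shares, since they sum over junctions chosen by reads in the same libraries.

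**Figure D3:**
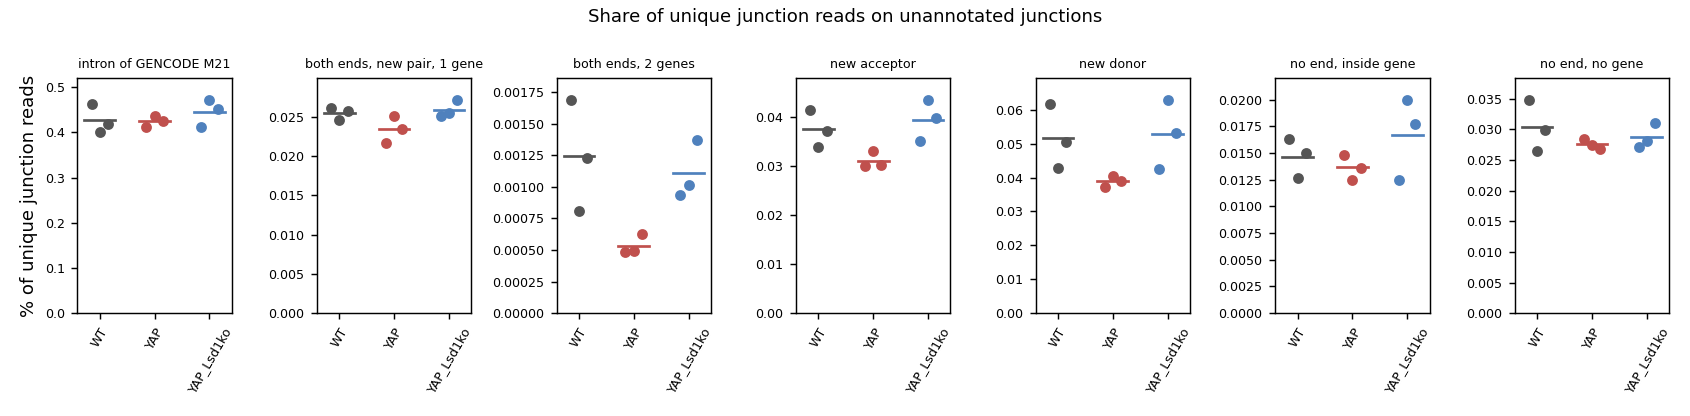
Share of each library's unique junction reads on each class (percent, own scale per panel, starting at 0), with 1 point per library and a line at the group mean. In the new acceptor and new donor panels the 3 YAP points lie below all points of WT and YAP_Lsd1ko.

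Each junction was then tested in 2 ways with edgeR's quasi-likelihood test and Benjamini-Hochberg adjustment over all junctions of at least 20 reads, annotated or not. The level test compares a junction's CPM between groups. The usage test compares the change of a junction with that of the other junctions of its gene, and it could be made for 4178 of the 4670. An adjusted p of 0.05 was the threshold. The 3 comparisons share libraries, so their values are set side by side only. A junction that reached 20 reads through 1 group had to differ, which is why counts over the 4670 are given as descriptions next to those over all junctions. The p-value of any single junction that reached 20 reads through 1 group rests on the reads that chose it, and is a description of these libraries too.

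In YAP against WT, 131 of the 4670 rose in level, where 3.7% of all 113330 tested junctions did, and 289 fell, where 4.94% of all did. Both directions together came to 8.99% against 8.64%, close to the background. The median log2 fold change was -0.19, against 0.03 over all junctions. Scaling by library size alone moved the former up by 0.22, to 0.02, and with it 171 rose and 213 fell. Calls by class were 78 higher and 149 lower among M21 introns, 8 and 23 among new pairs in a gene, and 5 and 24 among new acceptors. They were 17 and 55 among new donors, and 22 and 29 among the 301 with no annotated end and not inside a gene on their strand. At like depth, 5.07% of the junctions with 20 to 49 reads were called against 2.85% of annotated ones. The shares were 13.9% against 5.04% from 50 to under 200 reads, 19% against 12.2% from there to under 1000, and 20.8% against 28.9% above, with no test of the difference. The number called depended on single libraries, with 240 calls without WT replicate 1, 216 without WT replicate 3, and 246, 255 and 214 without YAP replicates 1, 2 and 3.

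Usage changed far more rarely. In YAP against WT, 17 of the 4178 passed, 7 higher and 10 lower, where 0.0497% of all 110569 junctions did, 55 in number. At an unadjusted p under 0.05 there were 306. Without YAP replicate 1 the count was 9 and without YAP replicate 3 it was 11. The 17 lay in Dst, Phldb2, Hnf4a, Kyat3, Snd1, Fam120a, AI182371, Slc38a4, Zbtb20, Clu, C6 and Pon1.

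**Figure D4:**
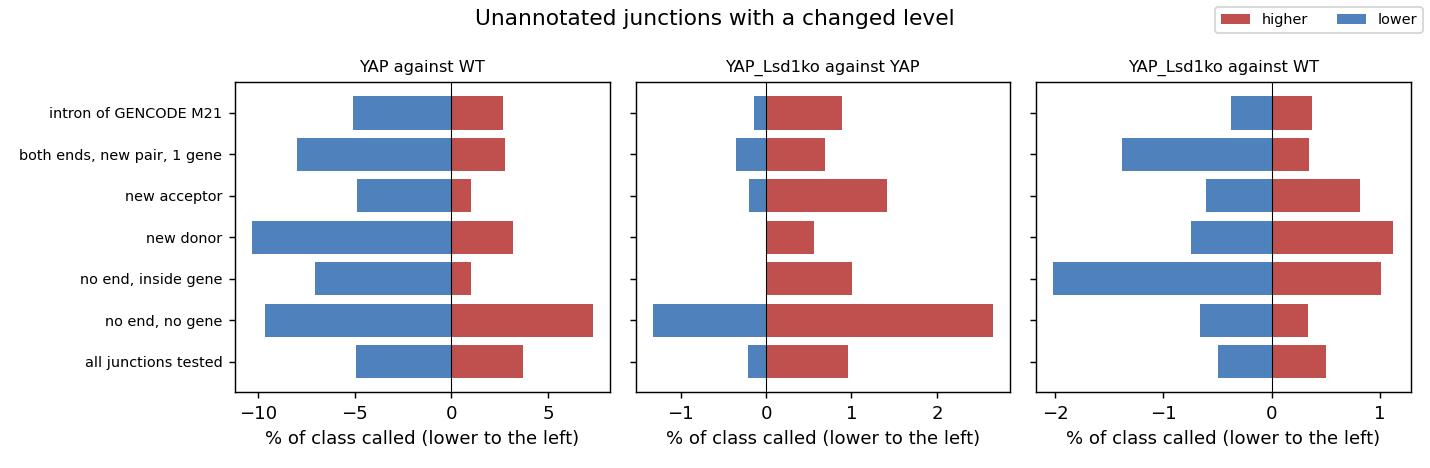
Percent of each class of unannotated junctions with a changed level in each comparison, higher to the right and lower to the left, with all tested junctions at the bottom. The class of 12 junctions between genes is left out, and the 3 panels have different scales.

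In Dst, which encodes the cytoskeletal linker dystonin and has several first exons, transcript starts moved in opposite directions. The junction from an upstream start (chr1:34122393-34135089, plus strand) had 4, 3 and 2 reads in WT, against 39, 23 and 50 in YAP and 15, 17 and 17 in YAP_Lsd1ko. WT lay below all other libraries, while YAP and YAP_Lsd1ko overlapped in CPM. It rose from 0.423 ± 0.171 to 4.25 ± 1.61 CPM in YAP (adjusted p = 6.76e-05, log2 fold change 3.31 with SE 0.44), and its usage rose too (adjusted p = 0.00346), a call lost without WT replicate 3 or YAP replicate 3 (adjusted p up to 0.316). The junction from a downstream start (chr1:34238904-34242618) had 21, 26 and 37 reads in WT, against 4, 11 and 10 in YAP and 16, 16 and 26 in YAP_Lsd1ko, so WT and YAP did not overlap. It fell from 3.82 ± 0.805 to 0.944 ± 0.426 CPM (adjusted p = 0.001, log2 fold change -2.00 with SE 0.36), and its usage fell with adjusted p = 2.12e-07, at most 0.00162 with any library left out. Over all M21 introns Dst stood at 288 ± 43.5 CPM in WT and 502 ± 71.3 CPM in YAP.

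Phldb2, which encodes a phosphoinositide-binding protein at the cell cortex, showed 4 introns with lower usage in YAP. Its first-intron junction chr16:45901413-45901508 (minus strand) had 19, 21 and 19 reads in WT, against 1, 1 and 2 in YAP and 0, 5 and 5 in YAP_Lsd1ko. WT lay above all other libraries. In YAP the log2 fold change of its level was -4.04 (adjusted p = 0.000311, SE 0.64), and the usage test gave an adjusted p of 2.55e-10. Another first intron, chr16:45907458-45953375, had 15, 22 and 30 reads in WT, against 5, 3 and 1 in YAP and 5, 6 and 10 in YAP_Lsd1ko, and its usage fell with an adjusted p of 1.12e-09. The intron between them, chr16:45901561-45907351, had 27 reads in WT and 1 in YAP, a ratio of 32.8 (95% counting interval 5.41 to 1344, usage adjusted p = 4.57e-05). The usage calls of these 3 in YAP against WT held without any 1 library. The fourth, chr16:45826096-45860321, passed with an adjusted p of 0.000356 and missed the threshold without YAP replicate 1 (0.0597). All of these 4 but chr16:45907458-45953375 reached the read threshold only through WT. Their p-values rest on the reads that chose them and are a description. The gene as a whole stood at 61.3 ± 4.49 CPM in WT and 95.9 ± 3.65 CPM in YAP, so its introns together were higher where these 4 were lower.

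Hnf4a encodes the nuclear receptor that sets much of the hepatocyte programme and is transcribed from a proximal and a distal promoter, of which adult liver mainly uses the proximal one. The junction from the distal first exon (chr2:163506988-163551576, plus strand, the Hnf4a join shown above) had 0 reads in each WT library, 15, 1 and 14 in YAP, and 15, 2 and 10 in YAP_Lsd1ko. It was at least 8.22-fold higher in YAP than WT, against a floor of 3 reads over the WT group, and at least 7.78-fold higher in YAP_Lsd1ko. Its usage passed in YAP against WT (adjusted p = 0.000167, at most 0.016 with any library left out) and in YAP_Lsd1ko against WT (adjusted p = 0.00648, up to 0.645 without WT replicate 1 or 3 or YAP_Lsd1ko replicate 1 or 3). The level call in YAP (adjusted p = 0.0316) was lost without any WT library, YAP replicate 1 or 3, or YAP_Lsd1ko replicate 3 (up to 0.101). In YAP_Lsd1ko against WT the level did not pass. The replicate 2 libraries of both YAP groups were the lowest, with 1 and 2 reads.

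The RefSeq sequence upstream of that distal start (GRCm38.p6, chr2:163506707-163506856, plus strand) is printed because this start was read in both YAP groups and in no WT library. Capitals mark a match to the inverted repeat of an HNF1 site, searched on both strands with letters chosen after the sequence had been read.
Hnf4a distal promoter: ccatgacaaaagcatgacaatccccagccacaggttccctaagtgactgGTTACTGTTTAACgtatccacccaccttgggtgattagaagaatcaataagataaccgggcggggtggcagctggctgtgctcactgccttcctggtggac

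Of 32851 RefSeq promoters, 27 (0.0822%) held that motif in the 250 bases before the start. Its letters were chosen on the Hnf4a promoter, so this share does not measure how unusual the match is. GGAATG or its reverse CATTCC, the core letters of a TEAD site, was in 4153 (12.6%) and not in this one.

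A second junction of Hnf4a used the new donor shown above, 30 bases inside an exon (chr2:163569010-163569948). Known HNF4A isoforms differ by a short insertion in the F domain. The junction had 59, 40 and 61 reads in WT, against 20, 34 and 25 in YAP and 36, 45 and 50 in YAP_Lsd1ko, so WT and YAP did not overlap. It fell in YAP from 7.37 ± 1.64 to 2.98 ± 0.765 CPM (adjusted p = 0.00375, log2 fold change -1.30 with SE 0.27), while its usage did not pass. It took 32.1% ± 0.641 of the reads of its acceptor in WT, 23.9% ± 8.12 in YAP and 30.6% ± 3.64 in YAP_Lsd1ko.

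Kyat3 encodes a kynurenine aminotransferase. An M21 junction into a shared acceptor (chr3:142706792-142718375, plus strand, the Kyat3 join above) had 3, 3 and 1 reads in WT, against 38, 20 and 23 in YAP and 18, 14 and 24 in YAP_Lsd1ko, with WT below all other libraries. It rose in YAP from 0.331 ± 0.177 to 3.07 ± 1.1 CPM (adjusted p = 0.000166, log2 fold change 3.19 with SE 0.47), and its usage rose (adjusted p = 0.000105, at most 0.0314 with any library left out). The main route into that acceptor was a new donor in the intron (chr3:142713042-142718375) that M21 lacks, with 190, 123 and 179 reads in WT, against 93, 84 and 100 in YAP and 93, 171 and 161 in YAP_Lsd1ko. It took 98.3% ± 0.647 of the acceptor's reads in WT, 74.5% ± 7.12 in YAP and 85.0% ± 7.16 in YAP_Lsd1ko. Its level fell in YAP (adjusted p = 0.0156, log2 fold change -1.11 with SE 0.28), a call lost without WT replicate 1 or 3 or any YAP library (up to 0.0829). The usage of this new donor did not pass.

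Snd1 encodes a nuclease-domain protein of RNA metabolism. A new donor in an intron of it (chr6:28705110-28707033, plus strand) had 0, 2 and 2 reads in WT, against 97, 19 and 38 in YAP and 9, 0 and 7 in YAP_Lsd1ko. Every YAP library lay above all others. It took 1.83% ± 1.60 of the reads of its acceptor in WT, 38.9% ± 15.1 in YAP and 6.11% ± 5.38 in YAP_Lsd1ko. Its usage rose in YAP against WT (log2 difference 3.28, adjusted p = 3.05e-09) and fell in YAP_Lsd1ko against YAP (log2 difference -2.07, adjusted p = 3.58e-05), at most 0.0359 with any library left out. Against junctions of the same acceptor alone, the adjusted p was 0.0482 and 0.306. The level call in YAP against WT (adjusted p = 0.0183) was lost without any WT library (up to 0.0733). Snd1 as a whole stood at 221 ± 12.9, 239 ± 67.8 and 213 ± 37.1 CPM.

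Fam120a, which encodes an RNA-binding protein, had a new intronic donor (chr13:48910431-48910976, minus strand) with 0 reads in each WT library, 24, 6 and 7 in YAP, and 3, 0 and 1 in YAP_Lsd1ko. It was at least 10.1-fold higher in YAP than WT (adjusted p = 0.00459) and took 15.5% ± 7.95 of its acceptor in YAP and 2.18% ± 2.46 in YAP_Lsd1ko. The usage call (adjusted p = 0.000554) was lost without YAP replicate 1 (0.171), and against the same acceptor alone the adjusted p was 0.104. The junction reached the read threshold only through YAP, so its p-values rest on the reads that chose it and are a description.

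In AI182371, 2 junctions had lower usage in YAP. The first intron (chr2:35101009-35101327, minus strand) had 64, 23 and 49 reads in WT, against 0, 1 and 6 in YAP and 8, 38 and 28 in YAP_Lsd1ko. WT and YAP did not overlap. Its usage fell in YAP (log2 difference -2.44, adjusted p = 0.000408), and the call was lost without YAP replicate 1 (0.109). An exon-skipping pair next to it had 41, 8 and 23 reads in WT and 2 in YAP, and its usage call (adjusted p = 0.0121) was lost without WT replicate 1 or 3 or YAP replicate 1 or 3 (up to 0.535). Against junctions of the same donor alone the pair did not pass. It took 45.8% ± 5.63 of that donor's reads in WT, and each YAP library had only 2 reads there. The usage calls in Slc38a4, Zbtb20, Clu, C6 and Pon1 each missed the threshold without 1 of at least 2 libraries.

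**Figure D5:**
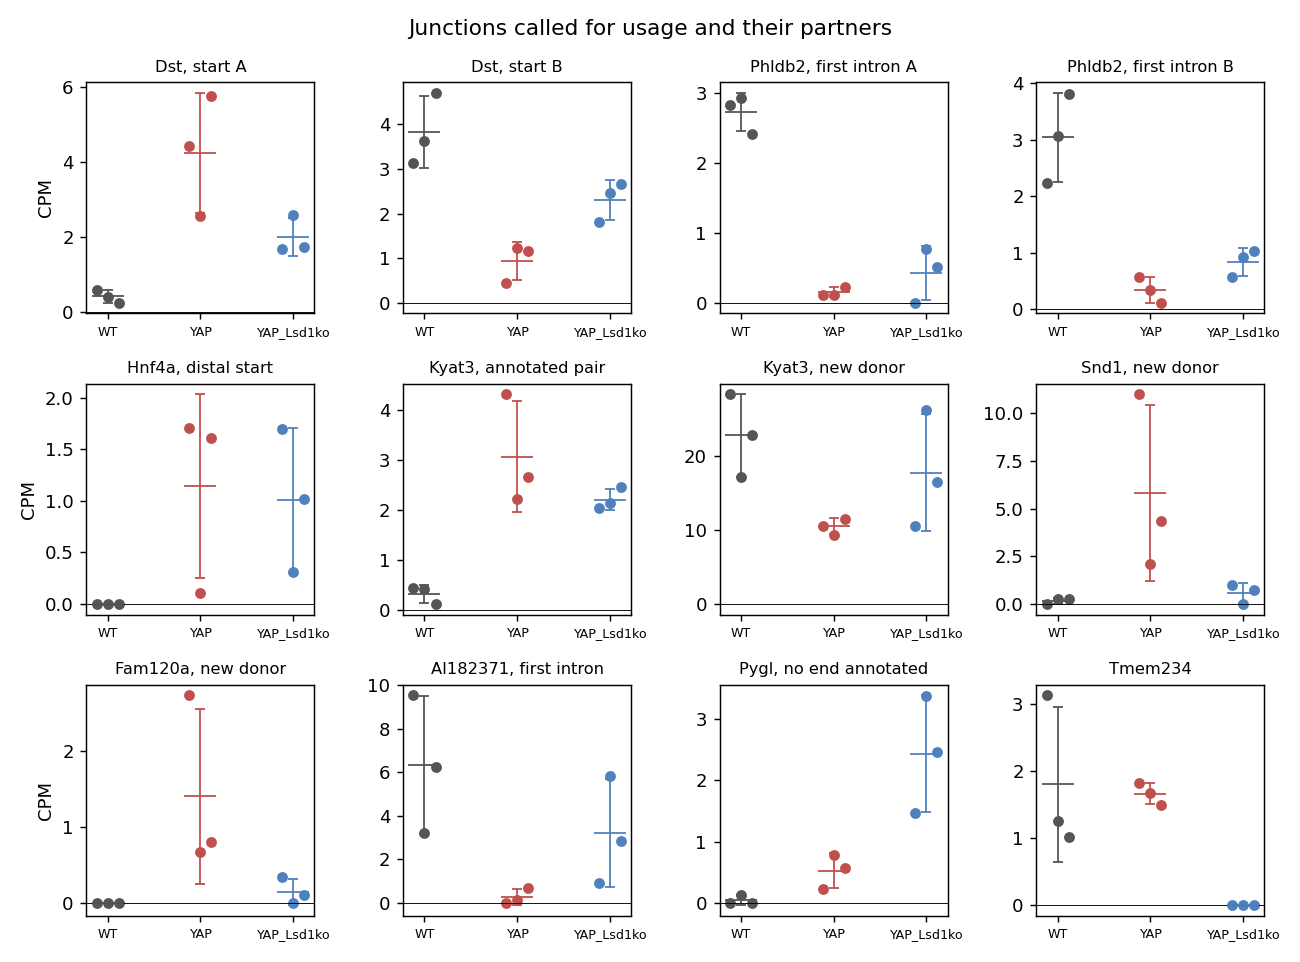
CPM of 12 unannotated junctions with a usage call, or sharing a gene with one, in each library (points), with the group mean and SD. The WT and YAP points do not overlap in any panel but Tmem234, and the Tmem234 junction is at 0 in the 3 YAP_Lsd1ko libraries.

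The junctions with the largest rises and falls of level by the naming rule came next, and none of those in this and the next 3 paragraphs passed the usage test where it could be made. H2-Q1, a non-classical MHC gene, rose at a junction with 1, 1 and 4 reads in WT, against 80, 27 and 48 in YAP and 28, 17 and 39 in YAP_Lsd1ko (log2 fold change 4.34, SE 0.53, adjusted p = 3.65e-05). Its family has near-identical copies, so the source of these reads is uncertain. Nrg1, which encodes the ErbB ligand neuregulin, rose at a first intron (chr8:31947035-31949916) from 0, 1 and 2 reads to 31, 25 and 23, a ratio of 21.7 (95% counting interval 7.15 to 107, adjusted p = 6.8e-05). The whole gene stood at 2.15 ± 1.84 CPM in WT and 29.3 ± 2.04 CPM in YAP.

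Sorbs2, named above, rose at chr8:45745447-45745785 from 9, 14 and 14 reads to 72, 72 and 58 (log2 fold change 2.16, SE 0.26, adjusted p = 2.52e-05), with 49, 26 and 40 in YAP_Lsd1ko. Ahnak, which encodes a giant scaffold protein, rose at a new donor (chr19:9047597-9076575) from 14, 13 and 16 reads to 59, 57 and 52 (log2 fold change 1.68, SE 0.25, adjusted p = 0.000164), with 40, 35 and 43 in YAP_Lsd1ko. Fgd3, an exchange factor gene for the GTPase CDC42, had 1 read in WT and 27, 14 and 19 in YAP, a ratio of 49.3 (95% counting interval 8.52 to 1981, adjusted p = 0.000709). Bicc1, an RNA-binding protein gene, went from 1, 2 and 1 reads to 26, 18 and 16 (log2 fold change 3.52, SE 0.68, adjusted p = 0.00213). WT and YAP did not overlap at any of these. Those of Fgd3 and Bicc1 reached 20 reads only through YAP, so their p-values rest on the reads that chose them and are a description. The cholangiocyte and macrophage markers given above were higher in the same libraries, and their part in these rises was not tested.

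Among the falls in YAP, Rnase4, a secreted ribonuclease gene, fell at a new intronic donor (chr14:51101490-51104806) from 28, 26 and 32 reads to 0, 2 and 0, with 2, 4 and 9 in YAP_Lsd1ko. The ratio of WT to YAP was 52.3 (95% counting interval 14.0 to 439, adjusted p = 1.24e-05). The junction reached the read threshold only through WT, so its p-value rests on the reads that chose it and is a description. Ces3a, a carboxylesterase gene, fell at chr8:105050616-105051731 from 34, 18 and 26 reads to 1, 0 and 0, with 9, 10 and 12 in YAP_Lsd1ko (WT to YAP 94.8, 95% counting interval 16.5 to 3794, adjusted p = 6.76e-06). Ces3a has close copies, so read assignment is uncertain. A new donor at the pseudogene Mup-ps20 had 261, 144 and 226 reads in WT and 0 in each YAP library, at least 256-fold lower (adjusted p = 0.00889), and again belongs to a family of near-identical copies. Its adjusted p depended strongly on single libraries, from 2.5e-10 without the library labelled YAP_Lsd1ko replicate 2 up to 0.0369.

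Gnmt encodes the glycine methyltransferase that consumes S-adenosylmethionine. Its exon-skipping junction (chr17:46726183-46726605, minus strand, the Gnmt join above) passes over a 143-base coding exon, a length not divisible by 3. It had 34, 37 and 39 reads in WT, against 16, 15 and 14 in YAP and 16, 16 and 18 in YAP_Lsd1ko, so WT lay above all other libraries. It fell in YAP from 5.06 ± 0.102 to 1.70 ± 0.105 CPM (adjusted p = 0.000695, log2 fold change -1.56 with SE 0.27). Gnmt as a whole stood at 1255 ± 407 CPM in WT, against 259 ± 51.6 in YAP and 611 ± 327 in YAP_Lsd1ko.

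In YAP_Lsd1ko against YAP, 47 of the 4670 rose, where 0.959% of all junctions did, and 10 fell, where 0.209% did. Together these were 1.22% against 1.17% of all. At like depth the shares lay further apart. From 20 to 49 reads, 0.283% were called against 0.164% of annotated junctions. From 50 to under 200 reads it was 2.07% against 0.445%, and from there to under 1000 reads 4.81% against 1.46%. Above that it was 4.17% against 6.36%, with no test of the difference. Without the library labelled YAP_Lsd1ko replicate 2, 33 rose and 7 fell. The total of 57 went to 31 without WT replicate 3, to 20, 31 and 10 without YAP replicates 1, 2 and 3, to 190 without YAP_Lsd1ko replicate 1 and to 15 without YAP_Lsd1ko replicate 3. Usage passed for 3 junctions, in Snd1, Pon1 and Tmem234, all lower, where 0.00543% of all did, and 200 had an unadjusted p under 0.05. There were 4 usage calls without the library labelled YAP_Lsd1ko replicate 2, 5 without YAP_Lsd1ko replicate 1, and without YAP_Lsd1ko replicate 3 there was 1.

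Hsd17b6, which encodes a steroid and retinoid dehydrogenase, had a first intron with 55, 35 and 52 reads in WT, against 15, 10 and 10 in YAP and 68, 34 and 63 in YAP_Lsd1ko. YAP lay below all other libraries. It rose in YAP_Lsd1ko against YAP from 1.32 ± 0.329 to 6.45 ± 1.24 CPM (adjusted p = 0.000553, log2 fold change 2.28 with SE 0.29), and had fallen in YAP against WT (adjusted p = 4.35e-05, log2 fold change -2.29 with SE 0.30). The gene moved alike, at 65.4 ± 19.8, 11.9 ± 4.67 and 58.6 ± 14.1 CPM. Without the library labelled YAP_Lsd1ko replicate 2 the adjusted p of the rise was 9.29e-05.

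Cyp3a25, a drug-metabolising cytochrome P450 gene, had 15 unannotated junctions, all outside M21. A new intronic acceptor (chr5:145996212-145998486, minus strand) had 14, 7 and 5 reads in WT, against 3, 14 and 14 in YAP and 49, 38 and 61 in YAP_Lsd1ko. The YAP_Lsd1ko libraries lay above all others. It rose against YAP (adjusted p = 0.00429, log2 fold change 2.31 with SE 0.38) and against WT (adjusted p = 0.00581, log2 fold change 2.27 with SE 0.40), the latter call being lost without WT replicate 3 or YAP_Lsd1ko replicate 3 (up to 0.0884). Cyp3a genes are similar in sequence, so assignment to Cyp3a25 is uncertain.

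Fgl1, which encodes a secreted fibrinogen-like protein of hepatocytes, fell at an exon-skipping junction in both comparisons of YAP_Lsd1ko. Its exon-skipping junction (chr8:41191681-41197313, minus strand, the Fgl1 join above) passes over a 188-base coding exon, a length not divisible by 3. It had 24, 30 and 30 reads in WT, against 44, 24 and 29 in YAP and 9, 5 and 7 in YAP_Lsd1ko, so YAP_Lsd1ko lay below all others. It fell against YAP from 3.67 ± 1.19 to 0.833 ± 0.163 CPM (adjusted p = 0.00342, log2 fold change -2.12 with SE 0.34) and against WT (adjusted p = 0.00224, log2 fold change -2.19 with SE 0.35). Both calls held without any 1 library, at most 0.0423. The gene stood at 437 ± 33.8, 387 ± 103 and 130 ± 13.8 CPM, and the junction took 6.62% ± 0.843, 6.57% ± 1.27 and 4.76% ± 1.0 of its donor's reads.

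Tmem234, a membrane protein gene 6.95 Mb from Kdm1a on chromosome 4, had a junction that no YAP_Lsd1ko library read. At chr4:129601962-129602194 (plus strand) there were 21, 9 and 8 reads in WT, against 16, 15 and 13 in YAP and 0, 0 and 0 in YAP_Lsd1ko. It was at least 13.9-fold lower than in YAP (adjusted p = 0.00296) and at least 14.6-fold lower than in WT (adjusted p = 0.00196), and both level calls held without any 1 library. The usage calls (adjusted p = 0.00194 and 0.00199) were lost without YAP_Lsd1ko replicate 3 (0.387 and 0.144). The library labelled YAP_Lsd1ko replicate 2, with Kdm1a in the WT range, was at 0 like the other two.

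The neighbouring junction of Tmem234 into the same exon (chr4:129601244-129601869) had 4, 1 and 5 reads in WT, against 6, 5 and 1 in YAP and 0, 1 and 0 in YAP_Lsd1ko. The junction that skips the exon (chr4:129601244-129602194) had 7, 6 and 5, then 2, 4 and 8, then 4, 10 and 10. It took 43.2% ± 10.7 of its donor's reads in WT, 30.1% ± 15.5 in YAP and 65.5% ± 10.2 in YAP_Lsd1ko. The gene as a whole stood at 17.9 ± 4.27, 18.9 ± 1.59 and 18.2 ± 2.86 CPM. Neither neighbouring junction passed a test.

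Within 10 Mb of Kdm1a there were 53 of the 4670, and 3 of them changed in level in YAP_Lsd1ko against YAP (1.17% of all junctions), 2 against WT (1.0% of all) and none in YAP against WT (8.64% of all). One (chr4:136085714-136094937, minus strand, 0.456 Mb from Kdm1a) had no annotated end and did not lie inside a gene on its strand. It had 0 reads in each WT and YAP library and 7 in each YAP_Lsd1ko library. It was at least 7.36-fold higher than in YAP and at least 6.05-fold higher than in WT. Its 21 reads all came from that group, so the difference followed from the choice of junctions and no test is given. It is counted in the 3 and in the 2 above, so those counts rest in part on that choice and are a description. The count against YAP loses it without the library labelled YAP_Lsd1ko replicate 2. The third, in Dhdds, which encodes a dolichol-synthesis enzyme, had 5, 5 and 12 reads in WT, against 10, 12 and 14 in YAP and 2, 3 and 1 in YAP_Lsd1ko. Its fall against YAP (adjusted p = 0.0468, log2 fold change -2.42 with SE 0.59) was lost without WT replicate 3, any YAP library, or YAP_Lsd1ko replicate 1 or 3 (up to 0.253).

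The 2 junctions of Kdm1a flank the 60-base exon shown above. They had 3, 2 and 6 reads in WT, against 2, 9 and 4 in YAP and 0, 3 and 3 in YAP_Lsd1ko on the downstream side, and 5, 3 and 5, then 7, 4 and 9, then 3, 1 and 2 on the upstream side. Neither passed a test. Yap1 had no junction among the 4670.

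In YAP_Lsd1ko against WT, 24 rose, where 0.504% of all junctions did, and 28 fell, where 0.498% did, together 1.11% against 1.0% of all. At like depth, 0.319% were called against 0.155% of annotated junctions from 20 to 49 reads. From 50 to under 200 reads it was 2.07% against 0.463%, and from there to under 1000 reads 3.48% against 1.61%. Above that it was 0% against 3.65%, with no test of the difference. Scaling by library size alone moved the median by 0.12, and with it 35 rose and 19 fell. The total of 52 went to 9 without WT replicate 3, 31 without YAP replicate 3, and 33, 98 and 12 without YAP_Lsd1ko replicates 1, 2 and 3. Usage passed for 5 junctions, 2 higher and 3 lower, where 0.00724% of all did, and 193 had an unadjusted p under 0.05. The count was 7 without the library labelled YAP_Lsd1ko replicate 2, 2 without WT replicate 3, 3 without YAP_Lsd1ko replicate 1 and 1 without YAP_Lsd1ko replicate 3. The 5 were 2 introns of Phldb2, the distal start of Hnf4a, the Tmem234 junction and 1 junction in Pygl.

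Pygl encodes liver glycogen phosphorylase. Its junction, with no annotated end (chr12:70231081-70231271, minus strand), had 0, 1 and 0 reads in WT, against 2, 7 and 5 in YAP and 13, 22 and 24 in YAP_Lsd1ko, and no 2 groups overlapped. The ratio of YAP_Lsd1ko to WT was 51.0 (95% counting interval 8.81 to 2049), with an adjusted p of 0.00136 for level and 0.00399 for usage. The usage call was lost without WT replicate 1 or 3 or YAP_Lsd1ko replicate 3 (up to 0.333). The junction reached the read threshold only through YAP_Lsd1ko, so its p-values rest on the reads that chose it and are a description. Pygl as a whole stood at 805 ± 191, 422 ± 32.7 and 763 ± 327 CPM.

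The 301 junctions with no annotated end and not inside a gene on their strand were of 3 kinds. Between genes lay 138, inside a gene on the opposite strand 84, and 79 overlapped part of a gene. Of the 301, 22 rose in YAP against WT, where 3.7% of all junctions did, and 29 fell, where 4.94% did. At 32988 bases from Tgfb2, which encodes a transforming growth factor, a junction (chr1:186589588-186589804, plus strand) had 0 reads in each WT library, 16, 19 and 21 in YAP, and 1, 0 and 2 in YAP_Lsd1ko. YAP lay above all others, at least 15.4-fold above WT (adjusted p = 0.00014). The ratio of YAP to YAP_Lsd1ko was 17.7 (95% counting interval 5.77 to 88.7, adjusted p = 0.00395), a call lost without YAP replicate 3 (0.0579). This junction reached the read threshold only through YAP, so its p-values rest on the reads that chose it and are a description. The next junction along (chr1:186589959-186599452) had 9, 9 and 15 reads in YAP and 0 in all 6 other libraries, at least 9.05-fold above WT. All its reads came from the group where it is high, so the difference followed from the choice of junctions and no test is given.

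Next to Cd1d1, which encodes a lipid-presenting molecule, 4 junctions on the minus strand lay one after another, 2 of them sharing an end, and all 4 rose in YAP_Lsd1ko against YAP. The one nearest the gene (chr3:86999465-87001402) had 35, 13 and 25 reads in WT, against 6, 18 and 14 in YAP and 52, 48 and 70 in YAP_Lsd1ko (log2 fold change 2.23, SE 0.35, adjusted p = 0.00325, at most 0.0476 with any library left out). YAP_Lsd1ko lay above both other groups. The call at chr3:87005576-87012044 also held without any 1 library. Those at chr3:87001474-87005496 and chr3:87005576-87012129 were each lost without any of 5 libraries, among them the library labelled YAP_Lsd1ko replicate 2 (0.178 and 0.0807). On the strand opposite to Trf, the transferrin gene, a junction (chr9:103215266-103215820, plus strand) had 1571 reads, the most of any without an annotated end. It had 97, 80 and 97 reads in WT, against 278, 198 and 229 in YAP and 235, 152 and 205 in YAP_Lsd1ko, and rose in YAP (adjusted p = 0.00319, log2 fold change 1.08 with SE 0.22). Trf as a whole stood at 3878 ± 288 CPM in WT and 9344 ± 1620 CPM in YAP.

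Gene lists of the pathway and tissue differed in how many of these junctions they held. Of 36 mature hepatocyte genes, 27 held 75 of the 4670, 61 of them outside M21. In YAP against WT, 3 of the 75 rose (3.7% of all junctions) and 13 fell (4.94% of all), with a median log2 fold change of -1.13 against 0.03 over all junctions. In YAP_Lsd1ko against YAP, 2 rose (0.959% of all) and none fell (0.209% of all), with a median of 0.62. The 2 lay in Ces3a and Mup3, and without the library labelled YAP_Lsd1ko replicate 2 their adjusted p was 0.00844 and 0.054. Those that fell in YAP included 2 in Ttr, the transthyretin gene. Its new acceptor 4 bases inside an exon (chr18:20666587-20669982) went from 40, 39 and 38 reads in WT to 11, 11 and 17 in YAP (adjusted p = 0.000346, log2 fold change -1.86 with SE 0.30). WT and YAP did not overlap.

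The other lists held few junctions, and their calls are a description. Over all junctions the level test called 8.64% in YAP against WT, 1.17% in YAP_Lsd1ko against YAP and 1.0% in YAP_Lsd1ko against WT. Of 32 YAP target genes, 3 held 5 junctions, and none passed a test in any comparison. Of 23 genes of polyamine metabolism and hypusination, 6 held 11, and 1 of these fell in YAP (4.94% of all junctions), in Paox, a polyamine oxidase gene. It had 4, 5 and 3 reads in WT, against 1, 0 and 0 in YAP and 3, 3 and 5 in YAP_Lsd1ko (adjusted p = 0.0405, up to 0.148 without any WT library, YAP replicate 2 or 3, or YAP_Lsd1ko replicate 3). This junction would not have reached the read threshold without its WT reads, so its p-value rests on the reads that chose it and is a description. Of 19 genes of the LSD1 complex, 5 held 9, and none passed. Of 21 biliary and progenitor genes none held one. Of 33 splicing regulator genes, 23 held 47, and 1 rose in YAP (3.7% of all junctions), in Mbnl2, which encodes a muscleblind-like splicing factor. It had 3, 3 and 4 reads in WT and 12, 12 and 16 in YAP (adjusted p = 0.0317, log2 fold change 1.69 with SE 0.48), and the call was lost without any 1 WT or YAP library (up to 0.13).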

How the data were processed

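Total RNA of mouse liver was depleted of ribosomal RNA and made into stranded libraries, per the labels' protocols. Tools named in the submitters' processing notes are STAR, featureCounts, edgeR, bcl2fastq and FastQC, with the build mm10. For the alignment, annotation and filters are not given in the sources used here. Junction tables came from the authors, who deposited 9 of them in STAR's layout, 1 per library, and whose values are raw counts of uniquely and multi-mapped reads per junction. Their other deposited value, of the unit other, is the longest read overhang in bases, at most 38. Nothing in them is normalized.

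Unique counts were joined over libraries by position and strand, and ends were compared with GENCODE M21 (GRCm38). A read over several junctions counts at each. CPM used library sizes scaled by TMM. All 113330 junctions of 20 or more reads entered 1 fit of all 9 libraries with edgeR 4.0.16 in R 4.3.3 (quasi-likelihood, robust; diffSpliceDGE for usage), with Benjamini-Hochberg adjustment. The SE is the log2 fold change divided by the square root of F. A group at 0 reads was set to a floor of 3 reads, and 1 to 3 reads gave a ratio with its 95% counting interval. PCR reads carry no molecular identifiers, so both intervals and floors reflect counting error alone. The fits were tested on simulated counts.

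Named junctions were, per comparison, the 8 largest changes at most in each direction among level calls whose groups did not overlap and whose higher group averaged 20 reads, the 6 smallest adjusted p-values for usage, the 6 most read per class, those of Kdm1a and Yap1, the 5 genes with most junctions, and calls in the gene lists. Other usage calls, junctions near Kdm1a, those not inside a gene on their strand, the smaller shifts and the exon pairs were chosen after their values were seen. The junctions and lists were chosen with earlier results of these data known. Alternatives tried were other scalings, filters, DESeq2 1.42.0, a replicate block, 2 groups only, the same splice site in place of the gene, other read thresholds, and each library left out.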

Additional observations from a re-analysis of the deposited data

How the results depend on the processing

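The number of changed levels in YAP against WT, 420, was 249 after filterByExpr and 16 without replicate 3 of every group, and 214 to 568 with 1 library left out. In YAP_Lsd1ko against YAP, 57 became 173 with every junction of 1 read or more, 26 with DESeq2 and 0 without replicate 3 of every group, and 10 to 190 with 1 library left out. In YAP_Lsd1ko against WT, 52 became 139 with every junction of 1 read or more, 26 with these 2 groups alone and 0 without replicate 3 of every group, and 9 to 98 with 1 library left out. At an unadjusted p under 0.05 edgeR still gave 325 and 279 for these counts of 0. Usage calls, 17 in YAP against WT, were 3 without replicate 3 of every group, 1 of 2200 against the same splice site, and 9 to 24 with 1 library left out. In YAP_Lsd1ko against YAP, 3 became 1, 0 and 1 to 5, and in YAP_Lsd1ko against WT, 5 became 0, 0 and 1 to 7, and 8 with library size alone. For those counts of 0, edgeR gave 85 and 74 against the same site and 119 without replicate 3 of every group at an unadjusted p under 0.05. The cause of these shifts was not tested, apart from fewer samples or fewer junctions where the setting itself leaves them out.

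Libraries were not paired by replicate number in the main fit. Deviations of same-numbered libraries correlated from -0.55 to 0.30. They were not set against differently numbered libraries, so they do not settle whether the numbers mark pairs. The fit with the replicate block gave 248, 22 and 27 level calls and 12, 3 and 5 usage calls. Among the calls on named junctions, none changed direction in any alternative run. DESeq2 size factors ended 0 of them, the replicate block 51, leaving out WT replicate 3 61, and leaving out replicate 3 of every group 149. Depth limits what could be seen, since the median junction had 39.0 reads over 9 libraries. Thresholds of 10 and 50 reads gave 9069 and 1847 junctions in place of 4670, and the share with both ends annotated was 76.4% at 50 reads.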
